A study of Mus musculus with 9 samples.

Results

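Genes for 9 transcription factors that shape macrophages, Spi1, Cebpa, Cebpb, Maf, Zeb2, Nr1h3, Runx3, Bhlhe40 and Gata6, were read in phagocytes sorted from the mouse peritoneal wall. They were taken by symbol from a table of 28764 gene symbols, and all 9 were found in it. Of these, 7 reached the level needed for a test, and Nr1h3 and Gata6 were too low. All animals were F1 crossbreeds heterozygous for both reporter alleles (Cx3cr1gfp/+ Ccr2rfp/+), so every population came from mice with 1 altered copy of Cx3cr1 and of Ccr2. They had received 50 µg of Cascade Blue dextran by vein a day earlier and were perfused before the wall was digested for 20 minutes. From CD11b-positive, Ly6G-negative cells, 3 populations were sorted. Double-negative cells had neither reporter, no MHC class II and had taken up dextran, and were 85 to 90% of the gate. CCR2-RFP cells were MHC class II-positive, and were 10 to 15% of it. CX3CR1-GFP cells were MHC class II-positive too, and were 0.5 to 1.5% of it. The labels call the double-negative and CX3CR1-GFP cells sessile resident macrophages and the CCR2-RFP cells migratory tissue monocytes. Each population had 3 libraries, from sorts labelled 1, 2A and 2B, made from 1 ng of RNA. No ages are given in the labels.

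PU.1, encoded by Spi1, opens and marks the regulatory DNA of myeloid cells, and the C/EBP factors act beside it from the granulocyte and monocyte progenitor onwards. Resident macrophages add factors on top of this shared base, among them the large MAF protein MAF, the repressor ZEB2, and nuclear receptors such as LXR alpha, encoded by Nr1h3, which acts on cholesterol efflux genes. GATA6 is the known identity factor of the large macrophages that float in the peritoneal cavity, and serves here as a reference for cells of the cavity as opposed to the wall.

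Levels are in TPM (transcript abundance corrected for transcript length and scaled per library), as mean ± SD over 3 libraries. Differences are log2 fold changes of log2(TPM + 1) from limma, fitted on the 10136 genes that reached 1 TPM in 3 or more of the 9 libraries. A gene was called at a Benjamini-Hochberg adjusted p below 0.05 over all of them. The +1 makes the fold change of a low gene smaller than the ratio of its TPM.

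The factors differed mainly in CCR2-RFP cells. Maf was 5.36-fold higher in CX3CR1-GFP than in CCR2-RFP cells by mean TPM, with double-negative cells overlapping the CX3CR1-GFP ones, while Bhlhe40 and Runx3 ran the other way. Cebpb was moderately higher in CCR2-RFP cells, and for Spi1, Zeb2 and Cebpa no difference was called. In CCR2-RFP against double-negative cells, 4 of the 7 tested factors were called, 3 higher and 1 lower, where 24.8% of all tested genes were called (14.9% higher and 9.88% lower). Of these factors, Runx3 passed the 1 TPM filter only through reporter-positive libraries, where it was higher. In CX3CR1-GFP against CCR2-RFP cells 4 of 7 were called, 1 higher and 3 lower, where 26.3% of all genes were (8.96% higher and 17.3% lower). In CX3CR1-GFP against double-negative cells limma called none of the 7, where 2.77% of all genes were called (1.16% higher and 1.61% lower). In that comparison 2 of 7, Runx3 and Bhlhe40, had an unadjusted p under 0.05, against 15.0% of all genes. The comparisons share libraries, so their counts are not independent. These shares of all tested genes are the background for each count of called genes in a list below.

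**Figure D1:**
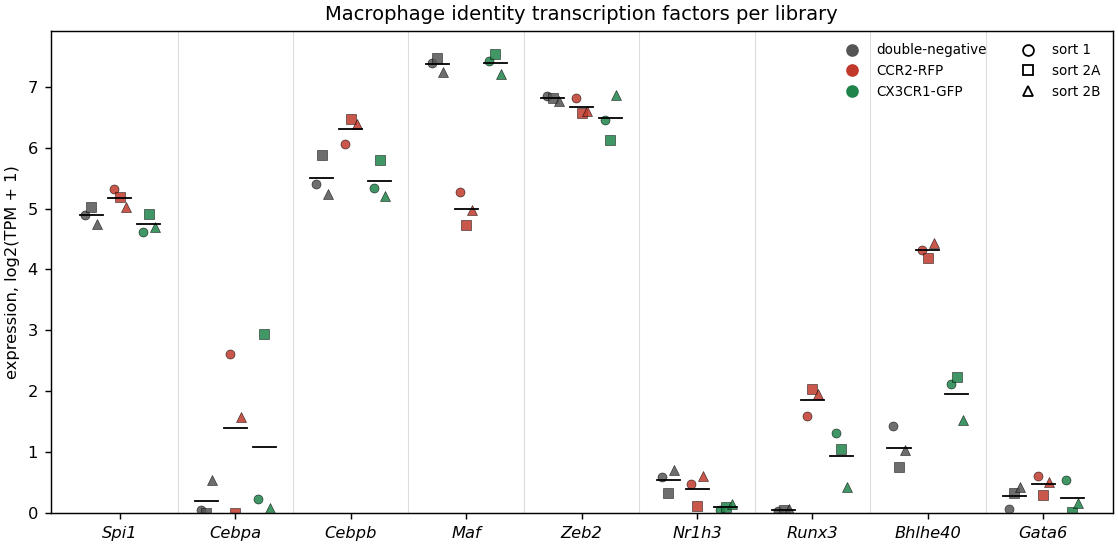
Expression of the 9 factor genes in each library, with log2(TPM + 1) on the y axis, a colour per population, a marker shape per sort and a black bar for the mean of 3 libraries. Maf sits between 25.4 and 37.7 TPM in the CCR2-RFP libraries and between 146 and 185 TPM in the other 6, and Nr1h3 and Gata6 stay under 1 TPM in all 9.

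The population labels were read against the reporter genes. Ccr2 was 95.4 to 115 TPM in CCR2-RFP libraries and at most 6.68 TPM in the others, and Cx3cr1 was 4.13 to 16.4 TPM in CX3CR1-GFP libraries and listed at 0 in the other 6. The description field of 6 reporter-positive samples names the opposite population to their title, source and cell type; the title was used. The listed values summed to 278579 to 382828 TPM per library, and Siglece alone took 21.9 to 34.7% of that sum, so scaling was varied. Sequencing depth is unknown, as TPM keeps no read counts. Rescaling without Siglece, mitochondrial and ribosomal genes moved the median log2 fold change of all genes from 0.09 to -0.07 in CCR2-RFP against double-negative cells, from -0.03 to 0.04 in CX3CR1-GFP against double-negative cells, and from -0.11 to 0.13 in CX3CR1-GFP against CCR2-RFP cells. The called genes then split into 994 higher and 1252 lower (from 1512 and 1001), 155 and 126 (from 118 and 163), and 1422 and 975 (from 908 and 1758), in that order. With quantile normalization the splits were 1107 and 1136, 142 and 137, and 1110 and 1158. With median-of-ratios scaling the split between the reporter-positive populations was 1120 and 1358. In bulk RNA, fewer cells of a type and less RNA per cell cannot be told apart.

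Macrophage markers were present in all libraries. The summed TPM of 11 of them was 1820 to 2050 in double-negative libraries, 862 to 1118 in CCR2-RFP libraries and 1325 to 1646 in CX3CR1-GFP libraries. Of these 11, limma called 2 higher and 7 lower in CCR2-RFP against double-negative cells. The defining gene Csf1r was among the lower and Itgam, which encodes CD11b, among the higher. The split was 1 and 8 with median-of-ratios scaling, and 1 and 9 after rescaling or with quantile normalization. Of all tested genes, 14.9% were called higher and 9.88% lower in this comparison. Dendritic cell markers moved with the CCR2-RFP population: 6 of 9 tested were higher and 2 lower against double-negative cells, and the 11 listed summed to 119 to 166 TPM there against 64.2 to 118 TPM. Among genes that define dendritic cells, Xcr1 was 1.23 to 1.63 TPM, Flt3 1.49 to 5.44 TPM and Zbtb46 1.57 to 2.50 TPM in CCR2-RFP libraries. Xcr1 and Flt3 were among the 6 called higher, with Batf3, Dpp4, Clec9a and Cd209a. As the levels of Xcr1 and Flt3 start close to the 1 TPM filter, either may have been tested only because it was high there. Their calls therefore add no separate support. Siglech and Irf8 were the 2 lower ones. The 9 T and NK cell markers in the table summed to 36.6 to 50.6 TPM in CCR2-RFP libraries against 2.28 to 3.63 TPM in double-negative ones, of which Cd2 was 33.5 to 41.1 TPM, while Cd3e, which defines T cells, was at most 0.0857 TPM there. Mesothelial markers summed to 1.09 to 8.995 TPM and fibroblast markers to 13.5 to 131 TPM, with the lowest fibroblast sum of each population in its sort 2A library. The part of these cells in the differences below was not tested.

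Promoter sequences were read for 5 of the 9 genes. They are shown for the genes whose RNA differed or varied most among them, with Zeb2, whose RNA did not differ beyond its spread, for contrast. Each is the 250 bases before a transcript start in RefSeq (GRCm38.p6), written 5′ to 3′ on the gene's strand. Capitals mark matches, on either strand, to a PU.1 core (GAGGAA), a C/EBP site (TTGCNNAA), a RUNX site (TGTGGT), an E-box (CACGTG), a ZEB site (CACCTG), a MAF half-site (TGCTGA) or a cAMP response half-site (TGACG). No capitals of different motifs overlap in the sequences shown. Runx3 has 2 start sites, a distal and a proximal one, and the deposited values do not separate their transcripts.
Runx3 distal promoter, chr4:135120395-135120644, plus strand: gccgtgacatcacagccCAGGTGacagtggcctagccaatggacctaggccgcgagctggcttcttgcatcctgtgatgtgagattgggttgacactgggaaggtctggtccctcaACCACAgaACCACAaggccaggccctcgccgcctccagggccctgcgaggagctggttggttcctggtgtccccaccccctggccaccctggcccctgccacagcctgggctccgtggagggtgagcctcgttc
Runx3 proximal promoter, chr4:135152295-135152544, plus strand: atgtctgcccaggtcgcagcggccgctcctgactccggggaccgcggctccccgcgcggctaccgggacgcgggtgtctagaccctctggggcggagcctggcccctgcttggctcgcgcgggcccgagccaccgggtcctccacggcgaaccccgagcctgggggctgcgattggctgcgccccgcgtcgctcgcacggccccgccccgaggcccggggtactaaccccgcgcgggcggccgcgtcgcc
Cebpb promoter, chr2:167688665-167688914, plus strand: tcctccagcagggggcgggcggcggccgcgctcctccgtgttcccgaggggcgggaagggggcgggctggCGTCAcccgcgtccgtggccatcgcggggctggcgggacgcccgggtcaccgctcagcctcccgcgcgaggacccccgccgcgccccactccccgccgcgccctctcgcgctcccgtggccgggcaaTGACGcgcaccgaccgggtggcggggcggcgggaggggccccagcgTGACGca
Cebpa promoter, chr7:35119043-35119292, plus strand: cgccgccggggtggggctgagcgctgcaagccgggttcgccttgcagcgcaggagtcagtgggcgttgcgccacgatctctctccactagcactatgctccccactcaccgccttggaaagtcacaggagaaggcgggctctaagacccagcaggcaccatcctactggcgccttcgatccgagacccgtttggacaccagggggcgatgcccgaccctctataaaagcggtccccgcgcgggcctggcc
Zeb2 promoter, first of 4 starts in the table, chr2:45117443-45117692, minus strand: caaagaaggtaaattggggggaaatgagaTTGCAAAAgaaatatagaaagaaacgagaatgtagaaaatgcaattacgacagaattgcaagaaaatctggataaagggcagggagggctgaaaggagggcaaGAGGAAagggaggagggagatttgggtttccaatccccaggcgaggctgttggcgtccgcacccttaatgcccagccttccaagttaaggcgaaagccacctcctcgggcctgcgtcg

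The distal Runx3 window holds 2 RUNX matches, beginning 134 and 126 bases before the start, and 1 ZEB match. The proximal window holds none of the 7 motifs. Over all 32851 RefSeq windows of 250 bases, 14.0% hold at least 1 RUNX match and 17.2% a ZEB match. The Cebpb window holds 3 cAMP response half-sites, beginning 180, 53 and 7 bases before the start, and 17.8% of all windows hold at least 1. The Cebpa window holds none of the 7. The Zeb2 window holds 1 C/EBP match and 1 PU.1 core, beginning 221 and 118 bases before the start, motifs found in 9.56% and 23.3% of all windows. For the others, 16.1% of windows hold a MAF half-site and 6.02% this E-box. A match describes letters only, and says nothing of binding in these cells.

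Spi1, the gene for PU.1, was expressed in all 9 libraries, with a narrow range. It lies on the plus strand of chromosome 2, bases 91082390 to 91115756 of GRCm38. In sorts 1, 2A and 2B, Spi1 was 28.6, 31.6 and 25.8 TPM in double-negative cells, 38.8, 35.4 and 31.6 TPM in CCR2-RFP cells, and 23.6, 29.0 and 25.0 TPM in CX3CR1-GFP cells. The CCR2-RFP libraries were the highest, the lowest of them lying barely above the highest double-negative library. The mean was 35.3 ± 3.59 TPM in CCR2-RFP, 28.7 ± 2.89 in double-negative and 25.9 ± 2.79 in CX3CR1-GFP cells (SD, n = 3). No difference between neighbours in this order was called: the log2 fold change was 0.29 in CCR2-RFP against double-negative cells (95% interval -0.04 to 0.62, limma adjusted p = 0.199) and -0.14 in CX3CR1-GFP against double-negative cells (-0.47 to 0.19, adjusted p = 0.717). The Spi1 difference between the 2 reporter-positive populations was -0.43 (-0.76 to -0.10, limma adjusted p = 0.0555). It was called with a filter at 5 TPM (adjusted p = 0.0363) and without CX3CR1-GFP 2A (0.0408), and over all 20 alternatives limma's adjusted p ran from 0.0363 to 0.680.

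Some related ETS factor genes differed between populations. Spic, a PU.1 relative required by iron-recycling macrophages of the spleen, was 3.02 ± 0.635 TPM in double-negative cells, 0.163 ± 0.0663 in CCR2-RFP cells and 4.84 ± 1.38 in CX3CR1-GFP cells (SD, n = 3). It was lower in CCR2-RFP cells than in double-negative ones (log2 fold change -1.78, SE 0.227, limma adjusted p = 0.000255) and higher in CX3CR1-GFP than in CCR2-RFP cells (2.30, SE 0.227, adjusted p = 5.60e-05). Within each library, Spi1 exceeded Spic 7.67 to 11.3 times in double-negative cells, 150 to 359 times in CCR2-RFP cells and 4.69 to 7.32 times in CX3CR1-GFP cells. Of the 15 ETS genes tested out of 17, Spi1 included, 2 were higher and 4 lower in CCR2-RFP against double-negative cells, 2 higher and none lower in CX3CR1-GFP against double-negative cells, and 4 higher and 3 lower in CX3CR1-GFP against CCR2-RFP cells. The last split was 7 and 2 after rescaling without Siglece, mitochondrial and ribosomal genes and 6 and 2 with quantile normalization. Among them, Etv1 was 12.3 ± 0.220, 2.54 ± 0.262 and 8.57 ± 0.963 TPM in double-negative, CCR2-RFP and CX3CR1-GFP cells, and Etv6, a repressor, was 2.67 ± 0.441, 7.68 ± 0.969 and 3.67 ± 0.492 TPM. Both differed in CCR2-RFP cells from the other populations, Etv1 at limma adjusted p = 1.78e-05 against double-negative and 0.000117 against CX3CR1-GFP cells, and Etv6 at 0.000742 and 0.00560.

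Cebpb, encoding the C/EBP factor that drives inflammatory and alternative activation genes in macrophages, was highest in CCR2-RFP cells. Its single exon lies on the plus strand of chromosome 2 (167688915 to 167690418). Cebpb was 41.2, 57.9 and 36.9 TPM in double-negative libraries of sorts 1, 2A and 2B, 66.0, 87.6 and 82.5 TPM in CCR2-RFP libraries, and 39.3, 54.6 and 36.1 TPM in CX3CR1-GFP libraries. The CCR2-RFP libraries did not overlap the others, and sort 2A was the highest library of each population. Means were 78.7 ± 11.3 TPM in CCR2-RFP, 45.3 ± 11.1 in double-negative and 43.3 ± 9.90 in CX3CR1-GFP cells (SD, n = 3). Cebpb rose in CCR2-RFP against double-negative cells (log2 fold change 0.80, SE 0.213, limma adjusted p = 0.0197) and fell in CX3CR1-GFP against CCR2-RFP cells (-0.86, SE 0.213, adjusted p = 0.0135), while the difference between the lower populations was -0.06 (95% interval -0.53 to 0.42, adjusted p = 0.928). The first call rests on single libraries and on the scaling: limma's adjusted p was 0.0696 without double-negative 1, 0.0762 without double-negative 2B, 0.0702 without CCR2-RFP 2A, 0.0700 without CCR2-RFP 2B, 0.0815 after rescaling, 0.0908 with quantile normalization and 0.0595 with no filter (range 0.00577 to 0.0908 over 20 alternatives). The second was lost after rescaling (0.0918), with quantile normalization (0.121) and without CCR2-RFP 2B (0.0512), in a range of 0.00423 to 0.121. Tmem189, on the other strand, shares 312 exon bases with Cebpb and was listed at 2.83 to 20.2 TPM; whether counting used the strand is not given in the sources used here, so reads of the shared bases cannot be assigned with certainty.

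Cebpd, the gene of a C/EBP factor induced by inflammatory signals, had a different order from Cebpb. Cebpd was 67.5 ± 10.3 TPM in double-negative, 33.3 ± 4.21 in CX3CR1-GFP and 19.6 ± 2.06 in CCR2-RFP cells (SD, n = 3). It fell in CCR2-RFP against double-negative cells (log2 fold change -1.72, SE 0.162, limma adjusted p = 3.43e-05). CX3CR1-GFP cells lay between, with Cebpd lower than in double-negative cells (-0.99, adjusted p = 0.0102) and higher than in CCR2-RFP cells (0.73, adjusted p = 0.00778). Both of these calls were lost without the sort 2A libraries (limma adjusted p = 0.0744, range 0.00657 to 0.0744, and 0.0662, range 0.000724 to 0.0662). The ratio of Cebpb to Cebpd within a library, a pair chosen after the values were seen, was 0.680, 0.924 and 0.466 in double-negative cells of sorts 1, 2A and 2B. The values were 1.10, 1.53 and 1.27 in CX3CR1-GFP cells and 3.77, 4.42 and 3.82 in CCR2-RFP cells. The libraries of the 3 populations therefore did not overlap in this ratio, which scaling of a whole library does not change.

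Cebpa, the C/EBP gene needed for the step from progenitor to granulocyte and monocyte, was detected unevenly. It has 1 exon on the plus strand of chromosome 7 (35119293 to 35121928). Cebpa was 0.0320, 0 and 0.451 TPM in double-negative libraries of sorts 1, 2A and 2B, 5.08, 0 and 1.97 TPM in CCR2-RFP libraries, and 0.171, 6.68 and 0.0583 TPM in CX3CR1-GFP libraries. Only 3 of the 9 libraries, 2 of CCR2-RFP and 1 of CX3CR1-GFP cells, exceeded 1 TPM, and the populations overlapped. None of its differences was called, and the intervals are wide: 1.20 (95% interval -0.53 to 2.93, limma adjusted p = 0.317) in CCR2-RFP and 0.89 (-0.84 to 2.62, adjusted p = 0.664) in CX3CR1-GFP against double-negative cells. Of the 6 tested C/EBP genes out of 7, limma called Cebpb higher and Cebpd lower in CCR2-RFP against double-negative cells, with Cebpb not called after rescaling or quantile normalization.

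Target genes of PU.1 and C/EBP factors moved in both directions in CCR2-RFP cells. Of 13 tested, limma called 5 higher and 6 lower against double-negative cells, none in CX3CR1-GFP against double-negative cells, and 5 higher and 5 lower in CX3CR1-GFP against CCR2-RFP cells. After rescaling or quantile normalization the first split was 3 and 7, or 2 and 7. Csf1r, which encodes the CSF-1 receptor that macrophages need to survive, was 207 ± 29.4, 63.4 ± 3.77 and 204 ± 7.38 TPM in double-negative, CCR2-RFP and CX3CR1-GFP cells (adjusted p = 1.58e-05 for the first pair). Csf2ra, a receptor chain gene for GM-CSF, was 10.8 ± 3.76, 45.8 ± 1.73 and 13.1 ± 2.41 TPM in the same order (adjusted p = 0.000124). Receptor genes for the macrophage growth factors thus differed in opposite directions in CCR2-RFP cells. The part of PU.1 or C/EBP factors in this was not tested. Fcgr1, the high-affinity IgG receptor gene, was 12.2 ± 1.24 TPM in double-negative cells, 0.794 ± 1.06 in CCR2-RFP cells and 12.4 ± 2.15 in CX3CR1-GFP cells (log2 fold change -3.02 for CCR2-RFP against double-negative cells, limma adjusted p = 9.97e-05).

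**Figure D2:**
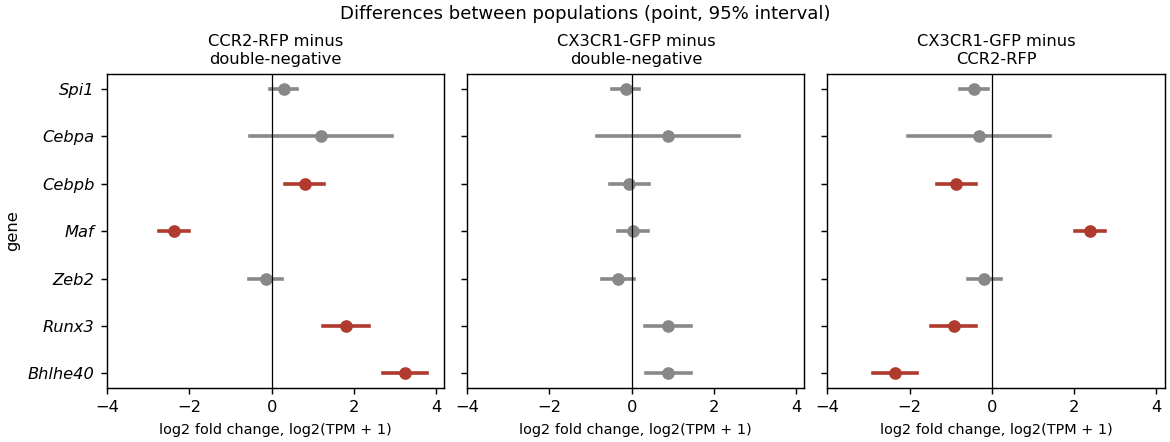
Log2 fold changes of log2(TPM + 1), with 95% intervals from limma, for the 7 tested factors in the 3 comparisons; red marks an adjusted p below 0.05 and grey the rest. Maf lies at -2.37 in CCR2-RFP against double-negative cells and at 0.02 in CX3CR1-GFP against double-negative cells, and the Cebpa intervals are the widest.

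Maf, one of the large MAF factors that keep macrophages differentiated and out of the cell cycle, was the called factor that was lower in CCR2-RFP cells. It lies on the minus strand of chromosome 8 (115682942 to 115707794) in 3 exons. Maf was 167, 177 and 150 TPM in double-negative libraries of sorts 1, 2A and 2B, and 171, 185 and 146 TPM in CX3CR1-GFP libraries. In CCR2-RFP libraries it was 37.7, 25.4 and 30.6 TPM. The CCR2-RFP libraries were all far below the other 6, while double-negative and CX3CR1-GFP libraries overlapped and had the same order over the sorts. Maf fell in CCR2-RFP against double-negative cells (31.2 ± 6.14 against 165 ± 13.7 TPM, log2 fold change -2.37, SE 0.165, limma adjusted p = 6.71e-06). It was higher in CX3CR1-GFP than in CCR2-RFP cells (167 ± 19.4 TPM, 2.40, SE 0.165, adjusted p = 7.61e-06). Between double-negative and CX3CR1-GFP cells the difference was 0.02 (95% interval -0.35 to 0.39, adjusted p = 0.969). Maf was called in all 20 alternatives in both comparisons with CCR2-RFP cells. Among 98 listed transcription factor genes, Maf ranked 1 in CX3CR1-GFP cells, 3 in double-negative cells and 14 in CCR2-RFP cells by mean TPM.

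**Figure D3:**
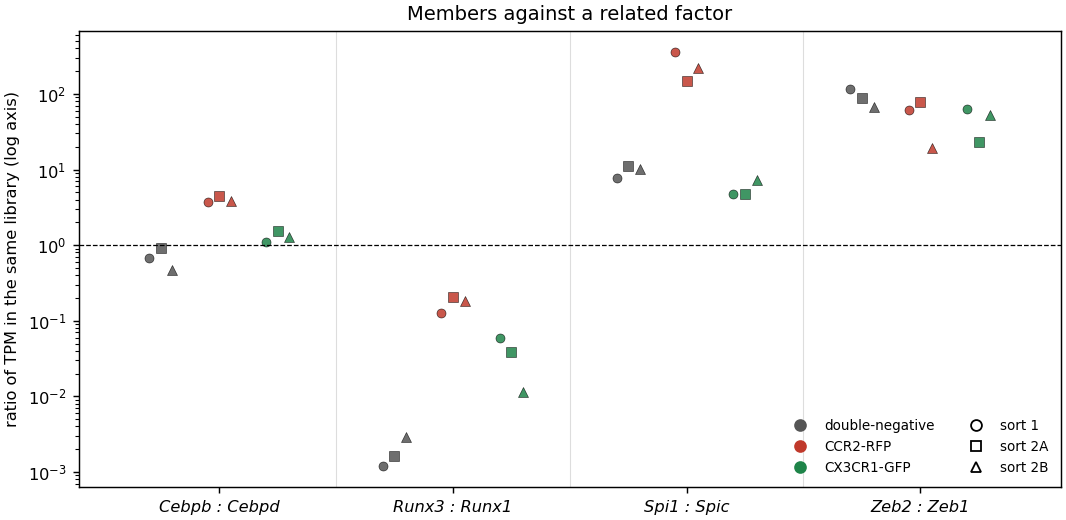
Ratio of the TPM of a factor gene to that of a relative in the same library, on a log axis, with colours for populations, shapes for sorts and a dashed line at equal levels. Cebpb to Cebpd is 3.77 to 4.42 in CCR2-RFP and 0.466 to 0.924 in double-negative libraries, and Spi1 to Spic is 150 to 359 in CCR2-RFP and 4.69 to 11.3 in the other libraries.

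Listed target genes of large MAF factors were mostly lower in CCR2-RFP cells, as Maf was. Of 8 tested out of 9, limma called 1 higher and 6 lower in CCR2-RFP against double-negative cells, with a median log2 fold change of -1.61 beside 0.09 over all genes. Of all genes, 14.9% were called higher and 9.88% lower there. In CX3CR1-GFP against CCR2-RFP cells 7 targets were higher and none lower (none also at an unadjusted p under 0.05), with a median of 1.38 beside -0.11. The shares of all genes were 8.96% higher and 17.3% lower. The subunit genes of complement C1q, made mainly by resident macrophages, were among these targets. C1qa was 144 ± 7.90 TPM in double-negative cells, 41.0 ± 2.68 in CCR2-RFP cells and 119 ± 12.9 in CX3CR1-GFP cells (limma adjusted p = 8.20e-06 for CCR2-RFP against double-negative cells). Mertk, a receptor gene for the uptake of dying cells, was 18.4 ± 0.297, 5.03 ± 1.18 and 15.0 ± 0.989 TPM in the same order (adjusted p = 5.14e-05). Axl, the gene of a related receptor, was instead highest in CX3CR1-GFP cells, at 10.7, 20.8 and 8.78 TPM in sorts 1, 2A and 2B against 0.566 to 1.31 TPM in double-negative cells (log2 fold change 2.90, SE 0.294, limma adjusted p = 0.000980). Of the 8 targets, 1 was higher and 3 were lower in CX3CR1-GFP against double-negative cells, where Maf was not called. With each of the 3 other scalings that count was 1 higher and 1 lower. The part of Maf in the differences of these targets was not tested.

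Zeb2, a zinc finger repressor gene that maintains tissue-specific macrophage identity, was high in all libraries. It lies on the minus strand of chromosome 2 (44983632 to 45117395). Zeb2 was 115, 111 and 109 TPM in double-negative libraries of sorts 1, 2A and 2B, 112, 93.8 and 96.5 TPM in CCR2-RFP libraries and 86.9, 68.9 and 115 TPM in CX3CR1-GFP libraries. The populations overlapped, and the CX3CR1-GFP libraries held both the lowest and the highest value. Means were 112 ± 3.22, 101 ± 9.89 and 90.4 ± 23.4 TPM (SD, n = 3), and none of the neighbours in this order differed beyond the spread. The log2 fold change was -0.15 in CCR2-RFP against double-negative cells (95% interval -0.55 to 0.25, limma adjusted p = 0.607) and -0.33 in CX3CR1-GFP against double-negative cells (-0.73 to 0.07, adjusted p = 0.427). It was -0.18 between the reporter-positive populations (-0.58 to 0.22, adjusted p = 0.496), and turned to 0.13 after rescaling and to 0.20 with quantile normalization. Zeb2 exceeded its relative Zeb1 19.5 to 117 times in every library. Zeb2os, an antisense gene sharing 653 exon bases with Zeb2, was listed at 0 to 2.09 TPM.

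Id2, the gene of an inhibitor that binds E proteins and keeps them off DNA, differed strongly. Id2 was 5.33 ± 0.184 TPM in double-negative cells, 72.9 ± 8.80 in CCR2-RFP cells and 10.3 ± 3.17 in CX3CR1-GFP cells (log2 fold change 3.54, SE 0.203, limma adjusted p = 3.05e-06 for CCR2-RFP against double-negative cells). The E protein gene Tcf4 was 58.7 ± 4.95, 16.3 ± 2.93 and 57.6 ± 9.92 TPM in the same order (-1.79, SE 0.172, adjusted p = 3.89e-05). These were the called genes among 7 tested of the 9 ZEB, E protein and ID factor genes in that comparison. ZEB2, Id2 and Tcf4 are each known from dendritic cell development as well as from macrophages, and the dendritic cell markers given above moved in the same population; their part was not tested.

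Nr1h3, the gene for LXR alpha, was low in all populations. It lies on the minus strand of chromosome 2 (91184061 to 91202834). Nr1h3 was 0.505, 0.259 and 0.629 TPM in double-negative libraries of sorts 1, 2A and 2B, 0.383, 0.0824 and 0.529 TPM in CCR2-RFP libraries, and 0.0294, 0.0687 and 0.112 TPM in CX3CR1-GFP libraries. No library reached 1 TPM, so no test was made. Nr1h2, the gene of the more widely expressed LXR beta, was 6.06 ± 0.565, 7.39 ± 0.721 and 5.42 ± 0.751 TPM in double-negative, CCR2-RFP and CX3CR1-GFP cells, with none of its differences called (limma adjusted p = 0.348, 0.759 and 0.123 for CCR2-RFP against double-negative, CX3CR1-GFP against double-negative and CX3CR1-GFP against CCR2-RFP cells). Within a library Nr1h2 exceeded Nr1h3 8.67 to 25.4 times in double-negative cells, 15.5 to 84.6 times in CCR2-RFP cells and 42.5 to 212 times in CX3CR1-GFP cells.

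LXR target genes did not move as a block. Of 11 tested out of 12, limma called 1 higher and 3 lower in CCR2-RFP against double-negative cells, none higher and 2 lower in CX3CR1-GFP against double-negative cells, and 3 higher and 3 lower in CX3CR1-GFP against CCR2-RFP cells. Of all tested genes, 24.8%, 2.77% and 26.3% were called in these comparisons, in that order. The cholesterol exporter genes differed in opposite directions. Abca1 was 17.9 ± 1.51 TPM in double-negative cells, 3.56 ± 0.386 in CCR2-RFP cells and 14.2 ± 1.69 in CX3CR1-GFP cells (log2 fold change -2.05, SE 0.160, limma adjusted p = 1.23e-05 for CCR2-RFP against double-negative cells). Abcg1 was 0.742 ± 0.167, 7.12 ± 1.56 and 0.469 ± 0.132 TPM in the same order (2.21, SE 0.205, adjusted p = 3.20e-05). Abcg1 reached 1 TPM in CCR2-RFP libraries only. It was therefore tested only because it was high there, and its adjusted p adds no separate support. Apoe, the apolipoprotein gene, was 1493 ± 36.2, 294.7 ± 73.7 and 1409 ± 222 TPM, lower in CCR2-RFP cells (-2.37, SE 0.187, adjusted p = 1.38e-05). Pltp, a phospholipid transfer protein gene, was 203 ± 19.6 TPM in double-negative and 228 ± 16.3 in CCR2-RFP cells and fell to 91.0 ± 8.70 TPM in CX3CR1-GFP cells (-1.15, SE 0.132, limma adjusted p = 0.00174 against double-negative cells). Of these 4 targets, Pltp was the one that differed in CX3CR1-GFP cells from both other populations.

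**Figure D4:**
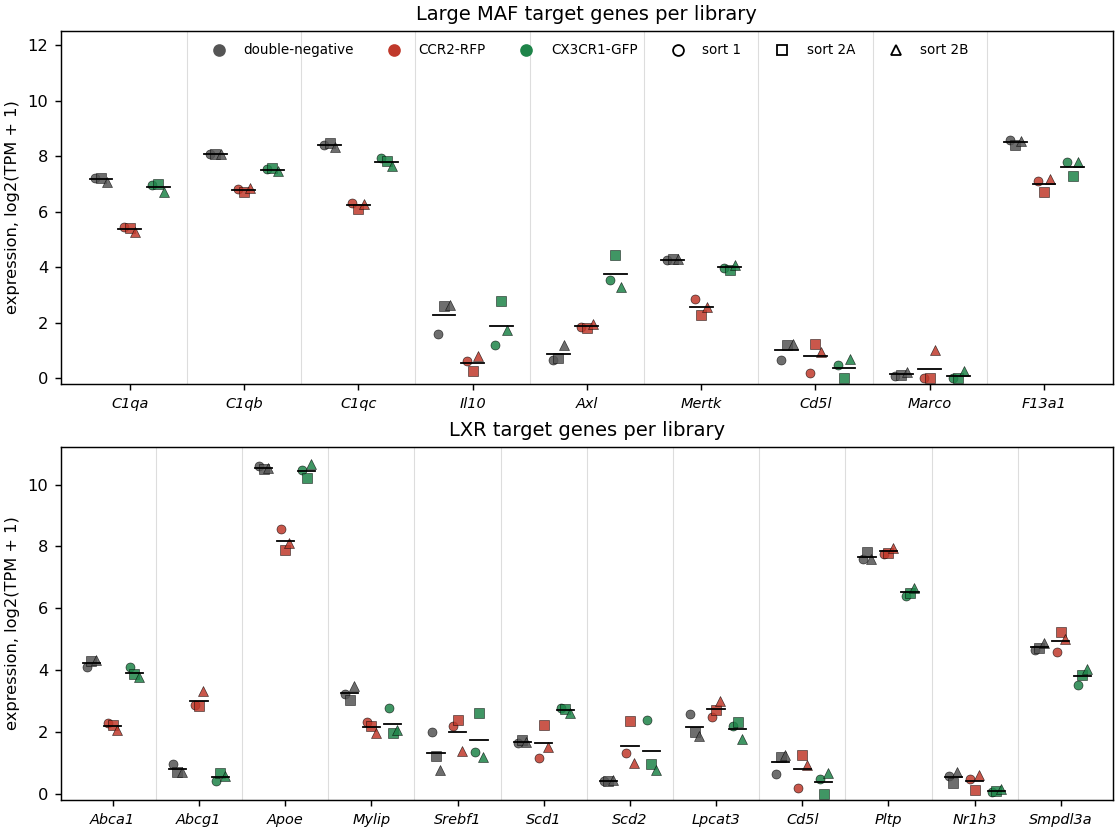
Expression of the listed target genes of large MAF factors (top) and LXR target genes (bottom) per library, as log2(TPM + 1), with colours for populations, shapes for sorts and bars for means of 3 libraries. C1qa, Mertk, Abca1 and Apoe are lowest in the CCR2-RFP libraries, Abcg1 is highest there, and Pltp is lowest in the CX3CR1-GFP libraries.

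Several other nuclear receptor genes were called. Of 14 tested out of 18, 5 were higher and 2 lower in CCR2-RFP against double-negative cells, and limma called none in CX3CR1-GFP against double-negative cells. The Nr4a genes, orphan receptors that respond quickly to stimulation, were higher in CCR2-RFP cells. Nr4a1 was 54.4 ± 1.16 against 17.8 ± 5.10 TPM (log2 fold change 1.59, limma adjusted p = 0.000360) and Nr4a3 was 26.0 ± 6.27 against 4.39 ± 1.58 TPM (2.34, adjusted p = 6.07e-05). Nr4a1 also belongs to the immediate-early genes that tissue digestion can induce. The 12 immediate-early genes summed to 2469 to 2834 TPM in double-negative libraries, 1746 to 2432 in CCR2-RFP libraries and 2787 to 3624 in CX3CR1-GFP libraries. They split in CCR2-RFP against double-negative cells, where limma called Nr4a1 and Egr2 higher and Jun, Ier3, Fosb and Egr1 lower. The part of digestion in the Nr4a differences was not tested. Nr3c1, the glucocorticoid receptor gene, was lower in CCR2-RFP cells (21.1 ± 0.381 against 40.8 ± 5.75 TPM, limma adjusted p = 0.00115).

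Runx3, a runt domain factor gene known from intestinal and skin mononuclear phagocytes and from T cells, was close to 0 in double-negative cells and low in the others. It lies on the plus strand of chromosome 4 (135120652 to 135177990). Runx3 was 0.0222, 0.0295 and 0.0482 TPM in double-negative libraries of sorts 1, 2A and 2B. Values were 2.01, 3.08 and 2.87 TPM in CCR2-RFP libraries and 1.49, 1.07 and 0.339 TPM in CX3CR1-GFP libraries. No 2 populations overlapped, and the order was CCR2-RFP, CX3CR1-GFP, double-negative. Runx3 rose in CCR2-RFP against double-negative cells (2.65 ± 0.570 against 0.0333 ± 0.0134 TPM, log2 fold change 1.81, SE 0.250, limma adjusted p = 0.000415), and the fold change was 4.35 with a pseudocount of 0.1 and 0.60 with 5. Runx3 was below 1 TPM in every double-negative library, so it entered the test only through populations where it was higher. It was lower in CX3CR1-GFP than in CCR2-RFP cells (0.965 ± 0.581 TPM, -0.93, SE 0.250, adjusted p = 0.0200; -1.54 and -0.36 with those pseudocounts). In CX3CR1-GFP against double-negative cells the difference of 0.88 was not called (95% interval 0.33 to 1.44, adjusted p = 0.106). It was called with a pseudocount of 0.1 (adjusted p = 0.0272) and without CX3CR1-GFP 2B (0.0361), in a range of 0.0272 to 0.373 over 18 alternatives. The lower level in CX3CR1-GFP than in CCR2-RFP cells lost its call without CCR2-RFP 2A (0.0706), CCR2-RFP 2B (0.0700), CX3CR1-GFP 2B (0.0574) or the sort 2A libraries (0.106), after rescaling (0.0574), with no filter (0.0783) and with a pseudocount of 0.1 (0.0665), in a range of 0.0116 to 0.106 over 19 alternatives. Of the 4 T and NK cell markers tested, Cd2 and the NK cell receptor gene Klrb1c moved with Runx3 in CCR2-RFP cells. Klrb1c was 1.26, 1.39 and 2.41 TPM in CCR2-RFP libraries against 0 to 0.198 TPM in double-negative and 0.0890 to 0.608 TPM in CX3CR1-GFP ones (limma adjusted p = 0.00251 and 0.00772), while Cd3e was at or near 0. Klrb1c reached 1 TPM in CCR2-RFP libraries only. It was therefore tested only because it was high there, and its adjusted p adds no separate support. The part of T or NK cells in the Runx3 difference was not tested.

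Runx1, the RUNX gene of blood cell formation, was far above Runx3 and had another order. Runx1 was 17.8 ± 1.00 TPM in double-negative cells, 15.6 ± 0.673 in CCR2-RFP cells and 27.6 ± 2.25 in CX3CR1-GFP cells (SD, n = 3). It was higher in CX3CR1-GFP than in CCR2-RFP cells (log2 fold change 0.79, SE 0.135, limma adjusted p = 0.00179). Against double-negative cells it was higher too (0.61, SE 0.135, adjusted p = 0.0428), but that call was lost without any 1 of the 9 libraries (adjusted p = 0.0592 to 0.150) and with the sort as a block (0.0808), in a range of 0.0230 to 0.228. The ratio of Runx3 to Runx1 was 0.00119 to 0.00289 in double-negative, 0.0114 to 0.0588 in CX3CR1-GFP and 0.125 to 0.208 in CCR2-RFP libraries. Cbfb, the gene of the partner that RUNX proteins bind DNA with, was 9.67 ± 0.280 TPM in double-negative and 19.5 ± 3.14 in CCR2-RFP cells (0.93, SE 0.172, limma adjusted p = 0.00265).

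Bhlhe40, a basic helix-loop-helix repressor gene tied to cytokine production and to proliferation of tissue macrophages, had the largest difference of the 7 tested factors in CCR2-RFP against double-negative cells at a pseudocount of 1. It lies on the plus strand of chromosome 6 (108660629 to 108666925). Bhlhe40 was 1.68, 0.687 and 1.05 TPM in double-negative libraries of sorts 1, 2A and 2B, 19.0, 17.2 and 20.6 TPM in CCR2-RFP libraries and 3.35, 3.69 and 1.88 TPM in CX3CR1-GFP libraries. The lowest CCR2-RFP library was far above the highest of the other 6, and the CX3CR1-GFP libraries lay just above the double-negative ones without overlap. Bhlhe40 rose in CCR2-RFP against double-negative cells (18.9 ± 1.72 against 1.14 ± 0.504 TPM, log2 fold change 3.24, SE 0.245, limma adjusted p = 9.70e-06). It was lower in CX3CR1-GFP than in CCR2-RFP cells (2.98 ± 0.961 TPM, adjusted p = 7.56e-05). Both were called in all 20 alternatives, though with a pseudocount of 5 the first fold change was 1.96. The difference of 0.89 between CX3CR1-GFP and double-negative cells was not called (95% interval 0.35 to 1.43, adjusted p = 0.0969), except without CX3CR1-GFP 2B (0.0469, in a range of 0.0469 to 0.463).

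Bhlhe41, the close relative that alveolar macrophages use together with Bhlhe40, had the opposite order in the reporter-positive cells. Bhlhe41 was 4.95, 0.507 and 1.46 TPM in double-negative libraries of sorts 1, 2A and 2B, 0.192, 0.0335 and 0 TPM in CCR2-RFP libraries, and 10.2, 7.25 and 5.25 TPM in CX3CR1-GFP libraries. The CX3CR1-GFP libraries were the highest, with the double-negative ones spread below them. It was higher in CX3CR1-GFP than in CCR2-RFP cells (log2 fold change 2.96, limma adjusted p = 0.000656). The ratio of Bhlhe40 to Bhlhe41 was 0.328 to 0.509 in CX3CR1-GFP libraries, 0.340 to 1.36 in double-negative libraries, and 98.8 and 514 in the CCR2-RFP libraries where Bhlhe41 was above 0. Tfec, a gene of the MiT family that is expressed in macrophages, was 4.96 ± 1.31 TPM in double-negative cells, 0.308 ± 0.120 in CCR2-RFP cells and 2.25 ± 0.297 in CX3CR1-GFP cells (adjusted p = 4.22e-05 for CCR2-RFP against double-negative cells). In the 6 BHLHE and MiT genes, all tested, 1 was higher and 3 lower in that comparison.

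Gata6, the reference for cavity macrophages, was under 1 TPM in all 9 libraries. It was 0.0437, 0.258 and 0.343 TPM in double-negative libraries of sorts 1, 2A and 2B, 0.523, 0.232 and 0.420 TPM in CCR2-RFP libraries and 0.457, 0.0163 and 0.122 TPM in CX3CR1-GFP libraries. The populations overlapped and no test was made, and none of the 6 GATA family genes reached the level for one. Genes known to depend on Gata6 in cavity macrophages summed to 59.1 to 120.0 TPM in double-negative libraries, 22.2 to 102 in CCR2-RFP libraries and 66.8 to 107 in CX3CR1-GFP libraries. The sort 2A library was the highest in double-negative and CCR2-RFP cells and the lowest in CX3CR1-GFP cells. Of 13 of these genes tested out of 15, limma called 1 higher and 3 lower in CCR2-RFP against double-negative cells and 1 higher and 1 lower in CX3CR1-GFP against double-negative cells. In CX3CR1-GFP against CCR2-RFP cells it called 1 higher and 2 lower. Of all tested genes, 24.8%, 2.77% and 26.3% were called in these comparisons, in that order. The counts in the comparisons with CCR2-RFP cells were near those shares, and are not read as a result about these genes. Vsig4, a complement receptor gene, was 10.2, 18.0 and 13.4 TPM in double-negative libraries, at most 1.53 TPM in CCR2-RFP and at most 3.21 TPM in CX3CR1-GFP libraries, lower in both (limma adjusted p = 6.13e-05 and 0.00391). Cd93, a receptor gene shared with endothelium, was 60.7 ± 5.17 TPM in CX3CR1-GFP and 2.16 ± 1.60 in CCR2-RFP cells (log2 fold change 4.40, SE 0.337, adjusted p = 1.40e-05).

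The wider set of 98 listed transcription factor genes gives the setting for these results. Of 76 tested, 16 were higher and 17 lower in CCR2-RFP against double-negative cells (43.4%), 3 and 3 in CX3CR1-GFP against double-negative cells (7.89%), and 16 and 18 in CX3CR1-GFP against CCR2-RFP cells (44.7%). Without the 7 tested factors of this account the shares were 42.0%, 8.70% and 43.5%. Over all tested genes the shares were lower, at 24.8%, 2.77% and 26.3%. The listed factors were chosen for their known roles in these cells, and with earlier results in view. Batf3, the dendritic cell factor gene, was 2.91 ± 0.384, 21.1 ± 2.91 and 4.95 ± 1.44 TPM in double-negative, CCR2-RFP and CX3CR1-GFP cells (limma adjusted p = 1.96e-05 for the first pair). Irf8, which monocyte and dendritic cell lineages both need, went the other way, at 11.0 ± 1.97, 2.46 ± 1.06 and 11.6 ± 1.48 TPM (adjusted p = 0.000406). Irf5, a driver gene of inflammatory macrophage activation, was 12.7 ± 0.751, 36.2 ± 8.47 and 13.9 ± 0.872 TPM (adjusted p = 0.000187). Mef2c, shared by microglia and B cells, was 49.1 ± 2.63, 18.3 ± 3.06 and 63.8 ± 4.12 TPM (adjusted p = 7.09e-05).

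**Figure D5:**
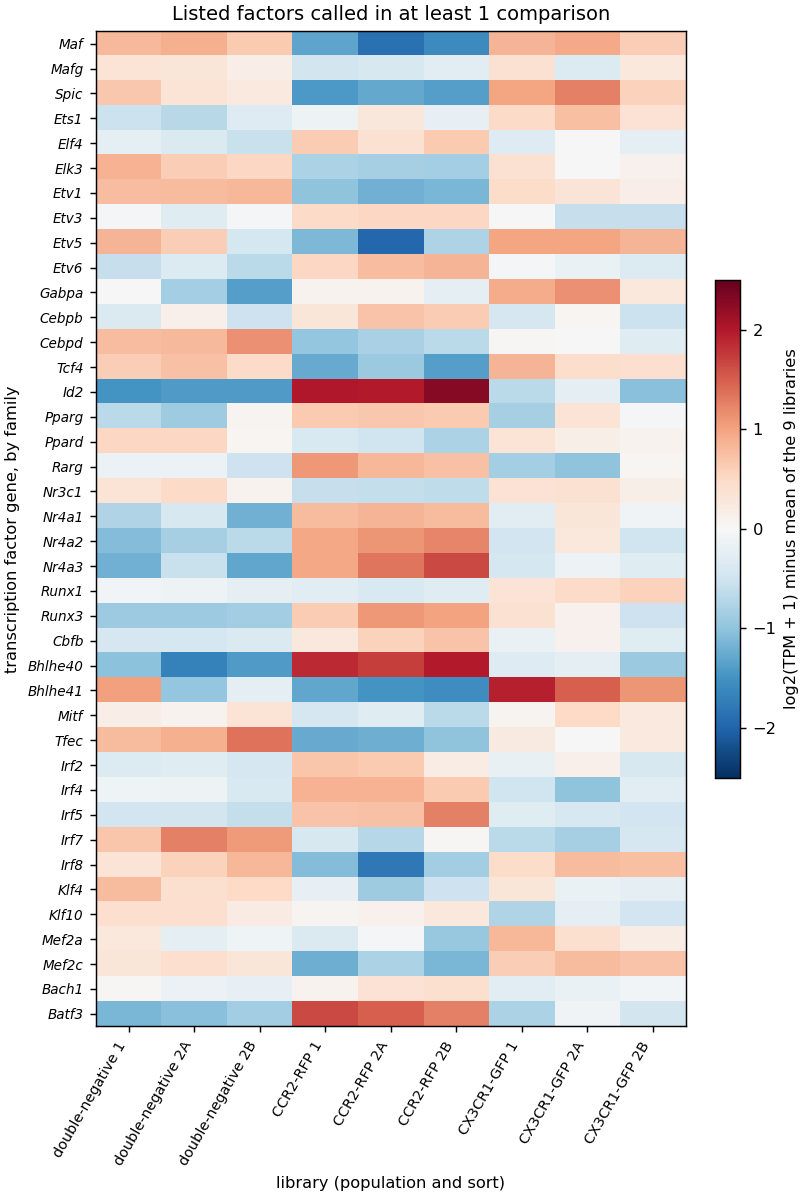
Log2(TPM + 1) minus the mean of the 9 libraries, by colour, for the 40 listed transcription factor genes called in at least 1 comparison, in rows by family, with libraries in columns. The scale is clipped at 2.5 in both directions; Id2 and Bhlhe40 are high and Maf, Spic and Tfec low in the 3 CCR2-RFP libraries.

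The 7 tested factors were last set beside the genes whose pattern was most like theirs. Likeness was Pearson's r of log2(TPM + 1) over the 9 libraries, which come from 3 populations, among about 2344 genes with a mean of at least 10 TPM, as a description. For Maf these were Cltc (0.998), the clathrin heavy chain gene, Cd300ld3 (0.997) and Chp2 (0.995). For Bhlhe40 they were Wdr26 (0.990), Gadd45b (0.990), a stress-response gene, and Id2 (0.989). Runx3 was closest to Txnl1 (0.983), Ccrl2 (0.972), a chemerin-binding receptor gene, and Slamf9 (0.963). Cebpb was closest to Mfsd14b (0.955), Calr (0.950), the calreticulin gene, and Syngr2 (0.943). Spi1 was closest to Hnrnpul2 (0.949), Hsp90b1 (0.946) and Atp5d (0.945), and Zeb2 to Arl8b (0.867), Map3k8 (0.865) and Zfr (0.850). Cebpa, low in most libraries, was closest to Trappc6b (0.934), Wapl (0.855) and Nucks1 (0.843). Among the factors themselves, Runx3 and Bhlhe40 had the highest r (0.939) and Maf and Bhlhe40 the lowest (-0.927).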

How the data were processed

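RNA of 3 sorted populations was sequenced in 9 libraries with paired reads of 75 bases, per the labels' protocols. The authors deposited TPM per gene symbol; the submitters' processing notes name Salmon 0.11.3, bcl2fastq 2.18, cutadapt 1.8.3 and mm10. Which annotation was used, how transcripts became genes and whether counting used the strand is not given in the sources used here.

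Values of the 28764 symbols were put on the log2(TPM + 1) scale and fitted with limma 3.58.1 under R 4.3.3 (linear model on all 9 libraries, intensity trend, two-sided contrasts), for genes reaching 1 TPM in 3 or more libraries. The script was tested on simulated data. The series design states 3 mice carried through as 3 replicates per group, so the sort labels were read as animals. Deviations from the population means were at most weakly correlated between libraries of the same sort (r 0.031 to 0.205 over 9 pairs). Over 18 pairs of different sorts r was -0.16 to 0.112, so the ranges overlap. As each mean is of 3 libraries, same-sort and different-sort values are not independent. The sort was used as a block in an alternative. Without read counts the depth cannot be known, and precision rests on 3 libraries per population.

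The factors and the 25 gene lists were chosen with earlier results of these data known. Named genes were all 9 factors and, per list and comparison, up to 4 called genes with the smallest adjusted p (or up to 2 with the highest mean where none was called), from which those shown were taken, and the 3 genes with the most similar pattern, leaving out predicted, ribosomal protein and small RNA genes; some genes first listed, and a ratio with one of them, are not reported here. Cell type sums and Cd3e, Cd2, Xcr1, Flt3 and Zbtb46 describe other cells. Gene positions are from GENCODE M21 (GRCm38, 1-based), which holds 85.9% of the symbols, and promoters from RefSeq. Alternatives were pseudocounts of 0.1 and 5, no low-value filter or one at 5 TPM, rescaling without Siglece, mitochondrial and ribosomal genes, scaling by median of ratios, quantile normalization, the block, no trend, 2 populations only and leaving out each library; leaving out the sort 2A libraries was added after seeing the data.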

Additional observations from a re-analysis of the deposited data

How the results depend on the processing

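Of the 20 alternatives, the count of called genes in CCR2-RFP against double-negative cells moved by over 1.5 times in 1, without the sort 2A libraries (1652 against 2513), and ran from 1778 to 2767 when each library was left out. In CX3CR1-GFP against CCR2-RFP cells it was 1767 without sort 2A (against 2666) and 1840 to 2548 without 1 library. In CX3CR1-GFP against double-negative cells it was 146 with no filter on low values, 88 without sort 2A and 126 to 259 without 1 library, against 281; it was lowest without double-negative 1 (129), 2A (126) and 2B (138) and CX3CR1-GFP 2A (165). The count of called factors was 1 with a pseudocount of 0.1 and 0 to 2 without 1 library (2, Runx3 and Bhlhe40, without CX3CR1-GFP 2B) in that comparison, and in CX3CR1-GFP against CCR2-RFP cells 2 after rescaling and 2 to 5 without 1 library (2 without CCR2-RFP 2B); in CCR2-RFP against double-negative cells it was 3 to 4 without 1 library. With the sort as a replicate block, 2428, 256 and 2666 genes and 4, 0 and 4 factors were called in CCR2-RFP and CX3CR1-GFP against double-negative cells and CX3CR1-GFP against CCR2-RFP cells; among the factors it changed no call.

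Small differences that were not called changed sign in CX3CR1-GFP against double-negative cells: the Maf log2 fold change ran from -0.051 to 0.11 when each library was left out, and was -0.04 without double-negative 2B and -0.05 without CX3CR1-GFP 2A. Cebpb was 0.037 after rescaling and 0.059 with quantile normalization, and ran from -0.24 to 0.12 without 1 library, positive without double-negative 2A or CX3CR1-GFP 2B. In CX3CR1-GFP against CCR2-RFP cells, Cebpa ran from -1.003 to 0.19 without 1 library, positive without CX3CR1-GFP 1 or CX3CR1-GFP 2B, and Zeb2 was 0.13 after rescaling and 0.20 with quantile normalization. The cause was not tested. Cebpa and Runx3 fell below the filter in some alternatives and gave no value there.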
